A study of Mus with 4 samples.

Results

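The genes described here are 10 genes of heart muscle, Myh6, Myh7, Myl2, Myl7, Actc1, Tnnt2, Tnni3, Ryr2, Pln and Nppa, out of 54532 gene identifiers in the deposited count table. The rule that chose them goes by name and uses none of their values, though it was written with earlier results of these data known. They were taken because the labels of the series disagree on the tissue: tissue and cell type are given as liver and liver sinusoidal endothelial cells (LSECs), whereas the protocol for RNA extraction speaks of heart ventricles. LSECs form the perforated wall of the liver's capillaries, the sinusoids. The series holds 4 RNA-seq libraries, 2 from control mice (CTL) and 2 from mice lacking Pofut1 (P1KO), the enzyme that adds O-linked fucose to EGF-like repeats such as those of Notch receptors. The title of the series places the loss in the endothelium, and the mice of both groups had received carbon tetrachloride (CCl4), a liver toxin. The driver of the deletion, the strain, age and sex of the mice, the dose of CCl4 and whether each library came from a mouse of its own are not stated in the labels. The spread behind the p-values is that between these 4 libraries, and part or all of it may be technical.

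Heart muscle contracts by sliding thick filaments of myosin along thin filaments of actin. Myosin heavy chains are the motors and myosin light chains brace them, while the troponin complex on the thin filament lets myosin bind when calcium rises. That calcium leaves the sarcoplasmic reticulum through the ryanodine receptor and is pumped back under the control of phospholamban. Cardiomyocytes carry the transcripts of this machinery among their most abundant RNAs, and endothelial cells are not known for it. The atria and ventricles use different light chains and, in the adult, the natriuretic peptide Nppa is mainly an atrial product.

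The 4 libraries, called CTL1, CTL2, KO1 and KO3 after their columns, held between 17464769 and 17918834 counts. Between 21854 and 22100 identifiers had at least 1 read in a library, and the most abundant gene of each library had at least 174935 reads. The column KO3 carries a number that no sample title has, so it is a P1KO library without a sample number. Levels are given as reads and as CPM, reads per 1000000 counts of the library. Neither is corrected for transcript length, so levels are compared between libraries. Where reads of different genes are set side by side, they reflect length as well as level. A count of 0 allows up to 3 reads, which is 0.167 to 0.172 CPM in these libraries. This limit and all intervals cover counting error only.

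Transcripts of heart muscle were scarce in all 4 libraries, and those of Myh6, Myh7, Actc1, Ryr2, Pln and Nppa were at or near 0. The 10 genes together had 214 reads among 70909955 counts, or 0.000302% of all counts. By library, CTL1 held 60 of these reads, CTL2 80, KO1 40 and KO3 34. By comparison, 11184 single genes, 20.5% of the table, each had more reads in every library than the 10 heart genes together. For 6 of the 10 genes no library had more than 3 reads, and 2 genes had no read at all. Over the table, 52.0% of the identifiers had no read in any library, and in CTL1 32.6% had more than 3 reads. The last share is for CTL1 alone, whereas the count of 6 genes takes all 4 libraries, so these measures are unlike. The counts of genes were therefore not read as setting the heart genes apart from the table. Only Myl7, Tnni3 and Tnnt2 had a read in every library. Each gene that marks cardiomyocytes was thus either not detectable at this depth or present at no more than 40 reads in a library. In bulk RNA, few cells that carry a transcript and little of it per cell cannot be told apart.

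**Figure D1:**
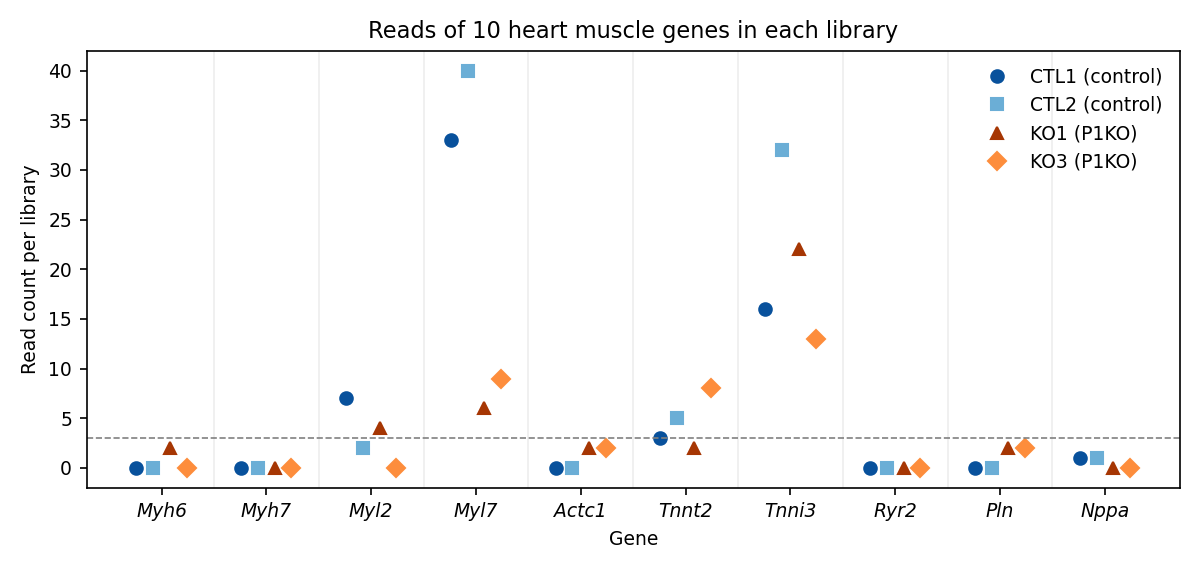
Read count (vertical axis) of each of the 10 heart muscle genes (horizontal axis), with 1 symbol per library: circles CTL1, squares CTL2, triangles KO1, diamonds KO3. The dashed line marks 3 reads, the limit used for a count of 0. Within each library Myl7 and Tnni3 stand above all others, and Myl7 has 33 and 40 reads in the CTL libraries against 6 and 9 in the P1KO libraries.

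The motors of the thick filament had 2 reads in all. Myh6 (ENSMUSG00000040752) encodes alpha myosin heavy chain, the main motor of the adult mouse heart (chromosome 14, 54941921 to 54968017, all positions in GRCm38). It had 0 reads in CTL1 and 0 in CTL2, against 2 in KO1 and 0 in KO3. Over all 4 libraries that is 0.0282 CPM, with an exact Poisson 95% interval of 0.00342 to 0.102. Myh7 (ENSMUSG00000053093) encodes beta myosin heavy chain, the motor of the fetal ventricle and of slow skeletal muscle (chromosome 14, 54970684 to 54994626). It had 0 reads in all 4 libraries. In all, 28377 identifiers, 52.0% of the table, had no read in any library. Myh6 and Myh7 are neighbours with long stretches of near-identical sequence. How reads that match both were counted is not stated, so a low level of either may be understated.

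The myosin light chains held 101 of the 214 reads, most of them from the atrial form. Myl7 (ENSMUSG00000020469), the atrial regulatory light chain (chromosome 11, 5896637 to 5898782), had 33 reads in CTL1 and 40 in CTL2, against 6 in KO1 and 9 in KO3. Myl2 (ENSMUSG00000013936), the ventricular regulatory light chain, which slow skeletal muscle also uses (chromosome 5, 122092724 to 122113473), had 7 reads in CTL1 and 2 in CTL2, against 4 in KO1 and 0 in KO3. The CTL and P1KO libraries did not overlap for Myl7, whereas for Myl2 they did. Groups did not overlap for 62.6% of all genes tested below, and for 32.1% the P1KO libraries were the lower ones. Myl2 is the light chain of the ventricle, the chamber that the extraction protocol names, and it never exceeded 0.401 CPM.

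The thin filament genes held 105 reads, of which Tnni3 had 83. Tnni3 (ENSMUSG00000035458) encodes cardiac troponin I, the inhibitory subunit of the complex and a clinical marker of heart muscle damage (chromosome 7, 4518305 to 4522718). It had 16 reads in CTL1 and 32 in CTL2, against 22 in KO1 and 13 in KO3, so that KO1 lay between the CTL libraries and KO3 below them. Tnnt2 (ENSMUSG00000026414) encodes cardiac troponin T, which ties the complex to tropomyosin (chromosome 1, 135836315 to 135852268). Its reads numbered 3 in CTL1 and 5 in CTL2, against 2 in KO1 and 8 in KO3, so that the P1KO libraries were both the lowest and the highest. Actc1 (ENSMUSG00000068614) encodes cardiac alpha actin, the backbone of the cardiac thin filament (chromosome 2, 114047282 to 114052875). It had no read in either CTL library and 2 reads in each P1KO library, within the limit used for a count of 0. The actin genes share most of their coding sequence, so single reads of Actc1 may belong to another actin gene.

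Calcium handling was represented by 4 reads. Ryr2 (ENSMUSG00000021313), the ryanodine receptor that releases calcium in heart muscle (chromosome 13, 11553099 to 12106945), had 0 reads in all 4 libraries. Pln (ENSMUSG00000038583) encodes phospholamban, the inhibitor of the calcium pump (chromosome 10, 53337686 to 53345999). It had 0 reads in CTL1 and CTL2 and 2 reads in each of KO1 and KO3. Nppa (ENSMUSG00000041616), the gene of atrial natriuretic peptide (chromosome 4, 148000722 to 148002074), had 1 read in each CTL library and 0 in each P1KO library. For Actc1, Pln and Nppa the groups did not overlap, but no library passed 3 reads, so no fold is given. Among the 10645 genes that had a read but did not pass the filter on low counts, 24.7% had groups that did not overlap.

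In the RefSeq annotation of GRCm38.p6, 4 of the 10 genes overlap another gene. The span of Pln overlaps that of Cep85l, Myl2 that of Ccdc63, Myh6 those of Cmtm5, Gm52092 and Mir208a, and Myh7 those of Gm31251, Mhrt and Mir208b. These are overlaps of whole gene spans, introns included, and overlap of exons was not measured. The labels do not say whether strand was used in counting, so where exons do overlap, reads could belong to either gene. Myl7 and Tnni3, which had the most reads, overlap the span of no other annotated gene.

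Against the other genes of each library, even the heart genes with the most reads stood below the median. Genes with at least 1 read had a median of 84 to 90 reads in a library. Of these genes, 58.7% had more reads than Myl7 in CTL1 and 57.2% in CTL2, against 73.2% in KO1 and 70.0% in KO3. For Tnni3 the shares were 64.7%, 59.1%, 61.5% and 66.7% in the same order. Ranks by reads depend on transcript length as well as on level, so they place the genes within a library and no more.

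**Figure D2:**
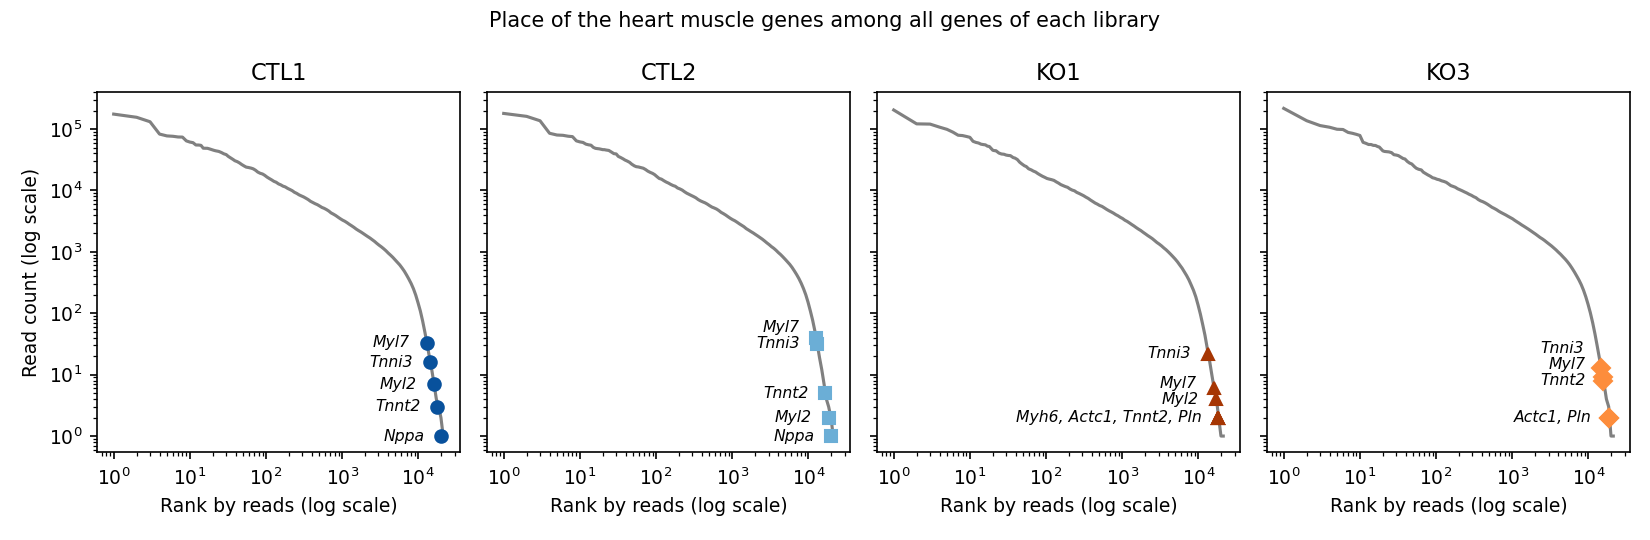
Read count (vertical axis, log scale) against rank by reads (horizontal axis, log scale) in each of the 4 libraries. The grey line runs over all genes with a read, and the symbols mark the heart muscle genes that had a read. All of them lie on the steep lower end of the curve, with Myl7 at 40 reads in CTL2 as the highest.

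Of the 10 genes, 2 passed the filter on low counts and were tested for a difference between the genotypes, and Myl7 was called, at a Benjamini-Hochberg adjusted p below 0.05 in edgeR's quasi-likelihood test. The filter asks for 0.563 CPM, which is 10 reads in a library of median depth, in at least 2 libraries. Tnni3 reached this level in all 4 libraries, whereas Myl7 reached it in both CTL libraries and in neither P1KO library. Myl7 thus entered the test only through the group where it was high, and the number of heart genes called among those that passed supports nothing. Over all genes, 3027 of 15510 were called, or 19.5%, and 9.84% were called lower in P1KO. The other 8 genes had too few reads for the test, 2 of them none. The background was lower among scarce genes: of the 2690 tested genes with a mean level of at most 2 CPM, 5.28% were called and 3.75% were called lower in P1KO. This class was set after the levels of Myl7 and Tnni3 were known, and it holds both.

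Myl7 was lower in P1KO. Its level was 1.89 CPM in CTL1 and 2.25 CPM in CTL2, with exact Poisson 95% intervals of 1.30 to 2.65 and 1.61 to 3.06. In KO1 it was 0.335 CPM, with an interval of 0.123 to 0.729, and in KO3 0.508 CPM, with an interval of 0.232 to 0.964. The intervals of the CTL libraries lay above those of the P1KO libraries. The group levels were 2.07 ± 0.253 CPM in CTL and 0.421 ± 0.122 CPM in P1KO (SD, n = 2 each). The log2 fold change was -2.26 ± 0.43 (SE), with an edgeR adjusted p of 0.0108, and both P1KO libraries were below both CTL libraries. Since Myl7 passed the filter through its CTL reads alone, the fit with no filter is given beside this one: it gave a log2 fold change of -2.27 ± 0.37 (SE) at an adjusted p of 0.0296 in edgeR. The summed reads, 73 in CTL and 15 in P1KO, gave a level 4.92-fold higher in CTL (exact binomial 95% interval from 2.80 to 9.23). Among the 15510 tested genes, 57 had a larger fitted fall and 1300 had a smaller p in edgeR's test, while 11.7% had a lower mean level. Myl7 entered the tested set through its CTL reads alone, so its place there supports nothing.

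The call for Myl7 rested on having both CTL libraries in the fit. Its log2 fold change was -2.39 without CTL1 and -2.14 without CTL2, with edgeR adjusted p-values of 0.123 and 0.151. It was -2.01 without KO1 and -2.57 without KO3, with edgeR adjusted p-values of 0.00154 and 0.000154. The number of genes called over the whole table moved too, from 3027 to 129 without CTL1, 120 without CTL2, 5391 without KO1 and 5208 without KO3. Within a group, edgeR's coefficient of variation beyond counting error came to 3.23% for CTL and 12.1% for P1KO. The tool calls it biological, but part or all of it may be technical, since a mouse per library is not stated. The spread that a fit draws on thus depends on which library is left out.

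Tnni3 did not pass the test. Its level was 0.916 CPM in CTL1 and 1.80 CPM in CTL2, against 1.23 CPM in KO1 and 0.733 CPM in KO3. The group levels were 1.36 ± 0.623 CPM in CTL and 0.981 ± 0.350 CPM in P1KO (SD, n = 2 each). The log2 fold change was -0.45 ± 0.49 (SE), with an edgeR adjusted p of 0.572, and the groups overlapped. The summed reads gave a ratio of CTL to P1KO of 1.39, and its exact binomial 95% interval from 0.878 to 2.21 holds 1. Without CTL2 the log2 fold change turned to 0.11, with an edgeR adjusted p of 0.938.

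**Figure D3:**
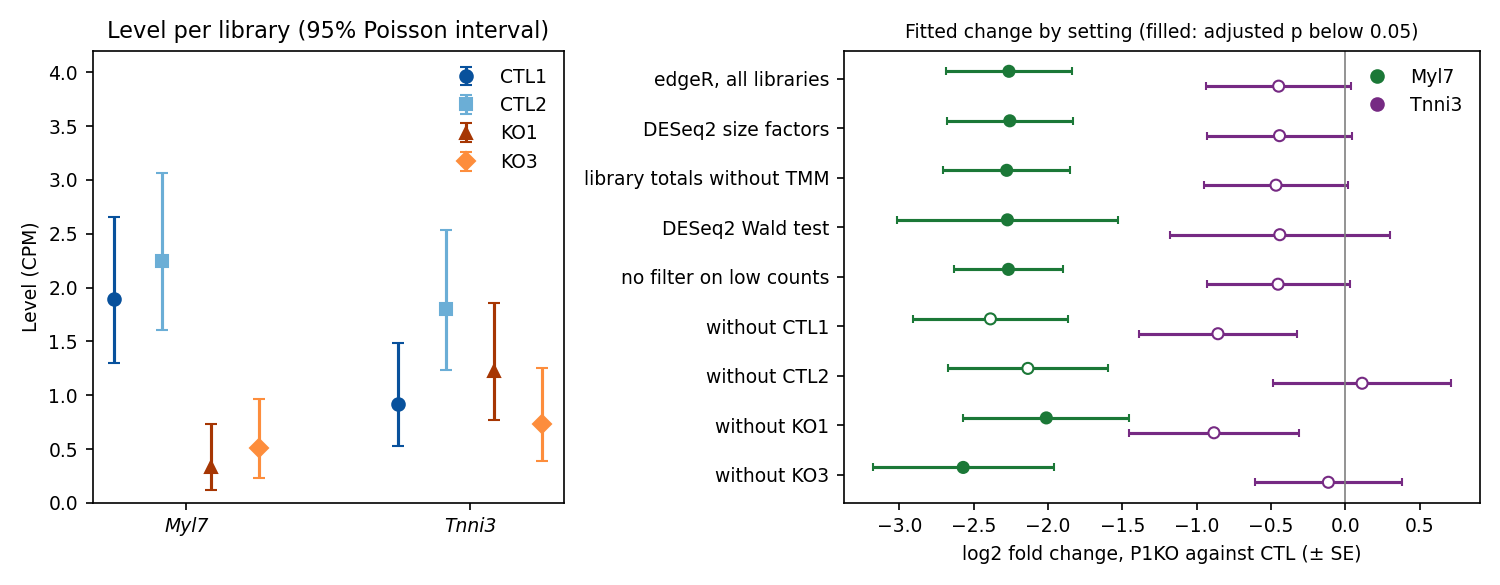
Left, level in CPM of Myl7 and Tnni3 in each library, with exact Poisson 95% intervals. Right, fitted log2 fold change of P1KO against CTL with its standard error under each setting, filled where the adjusted p was below 0.05. Myl7 stays between -2.01 and -2.57 and is not called without CTL1 or without CTL2, whereas Tnni3 lies between -0.88 and 0.11.

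For Myl2 and Tnnt2 a ratio could be formed from the reads alone. Myl2 had 9 reads in CTL and 4 in P1KO, a ratio of 2.27 (exact binomial 95% interval from 0.635 to 10.1). Tnnt2 had 8 reads in CTL and 10 in P1KO, a ratio of 0.809 with an interval of 0.277 to 2.28. Both intervals hold 1 and are wide, so the depth shows neither a difference nor its absence. With no filter on low counts, the 8 heart genes that had a read could be tested. Of these 8, Myl7 was called, against 1633 of 26155 genes over the table, which is 6.24%, with 3.15% called lower in P1KO. The next smallest edgeR adjusted p among the heart genes was 0.370, for Actc1 and Pln.

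The summed level of the 10 genes was 3.44 CPM in CTL1 and 4.49 CPM in CTL2, against 2.23 CPM in KO1 and 1.92 CPM in KO3. The group values were 3.96 ± 0.748 CPM in CTL and 2.08 ± 0.222 CPM in P1KO (SD, n = 2 each), and the groups did not overlap. The ratio of CTL to P1KO was 1.91 in summed reads (exact binomial 95% interval from 1.43 to 2.57). Without Myl7 the other 9 genes had 27 reads in CTL1 and 40 in CTL2, against 34 in KO1 and 25 in KO3, a ratio of 1.15 with an interval of 0.797 to 1.66. Without Myl7 and Tnni3 the other 8 genes had 11, 8, 12 and 12 reads in the same order, a ratio of 0.800 with an interval of 0.414 to 1.52. By role, the light chains had 82 reads in CTL and 19 in P1KO, the thin filament genes 56 and 49, and the calcium handling genes 0 and 4.

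**Figure D4:**
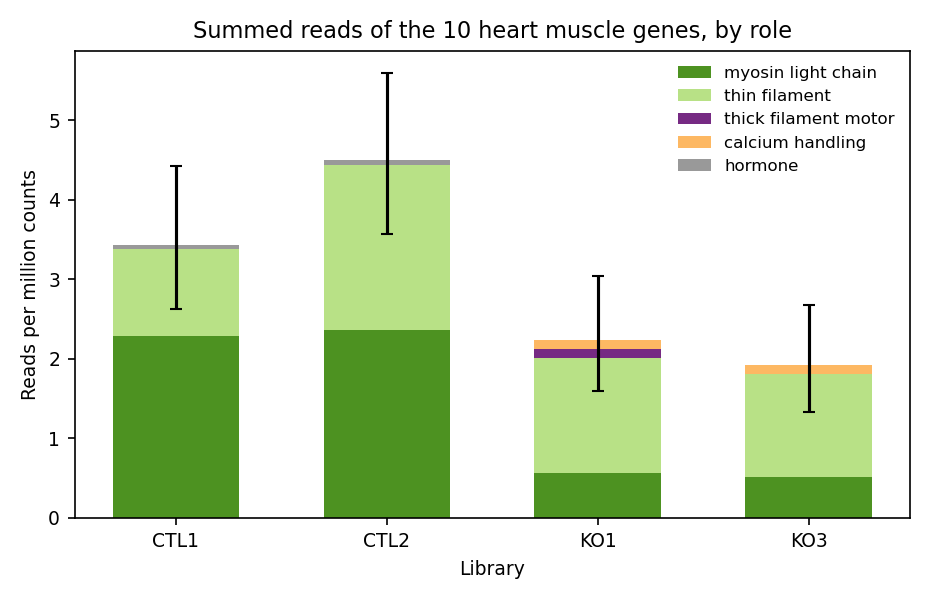
Summed level in CPM of the 10 heart muscle genes in each library, stacked by role, with the exact binomial 95% interval of the sum (error bars). The sums run from 1.92 in KO3 to 4.49 in CTL2, and the light chain part is 2.29 and 2.36 in the CTL libraries against 0.558 and 0.508 in the P1KO libraries.

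These levels describe the RNA in the libraries and not the organ it came from. No library is labelled as heart tissue or as heart endothelium, and endothelial cells of either organ could lack muscle transcripts, so which of the 2 tissues named in the labels is right was not tested by these genes. Markers of sinusoidal endothelium, of heart capillary endothelium and of hepatocytes were not analysed here, because no source used here pairs their symbols with the identifiers of the table. No gene with a pattern like that of a heart gene is named, since none of the 10 reached 20 reads in every library.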

How the data were processed

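The authors deposited 1 table of raw read counts for 54532 Ensembl gene identifiers in 4 columns, all of which were used. The submitters' processing notes name mm10 as the build and, as tools, featureCounts 1.5.0-p3, HISAT2 2.0.5, fastp and CASAVA. They do not give the annotation release, the strand setting or the treatment of reads with several matches. The deposited table holds no symbols, and the RefSeq table (GRCm38.p6) pairs 0 of its 49997 genes with an Ensembl identifier. The 10 identifiers were paired with symbols by a list made for this work, which these tables could not check. RefSeq positions were matched by symbol for all 10.

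The counts were tested with edgeR 4.0.16 in R 4.3.3, with filterByExpr and TMM scaling. The quasi-likelihood test of P1KO against CTL had no covariates and was adjusted by Benjamini-Hochberg over all 15510 genes tested. It was also run on simulated counts in which both groups had the same spread. The groups here differ in spread, so that check does not cover these data in this respect. The standard error is the size of the log2 fold change over the root of the F statistic. Levels use library totals, with exact Poisson or binomial 95% intervals. Alternatives were DESeq2 size factors, library totals, DESeq2 1.42.0, no filter (at least 1 read) and each library left out, over the same genes. All 10 genes are named. The rule for the 10 genes goes by name alone, but it and the lists were made with earlier results of these data known.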

Additional observations from a re-analysis of the deposited data

How the results depend on the processing

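The level of each heart gene in each group moved by at most 1.69% between library totals and TMM-scaled CPM. With all 4 libraries, Myl7 was the 1 heart gene called under DESeq2 size factors, library totals, DESeq2 and no filter, with log2 fold changes from -2.26 to -2.28. Over the table, 19.7%, 19.2%, 14.6% and 6.24% of the genes with an adjusted p were called in these fits (3053 and 2985 of 15510, 2143 of 14680, and 1633 of 26155), against 3027 of 15510. Leaving out 1 library gave 120 to 5391 called genes over the table and 0 to 1 called heart genes. The log2 fold change of Tnni3 ran from -0.88 to 0.11 with 1 library left out, and changed sign without CTL2. The log2 ratio of the summed level, -0.93, was -0.20 without Myl7, and -0.73 to -1.11 with 1 library left out. The spread of a group left with 1 library was taken from the other group. No paired analysis was possible because column KO3 has a number that no sample title carries.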
